A study of Rattus norvegicus with 10 samples.

Results

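Expression of germline genes was examined in rat primary neuron cultures treated with inhibitors of histone deacetylases (HDACs), the enzymes that take acetyl groups off histones. The list held 8 genes that are normally used by germ cells (Ddx43, Rbmxl2, Dazl, Ddx4, Mael, Sycp3, Tdrd1 and Stra8). Of these, 3 could be paired with a row of the deposited table of 32883 genes, namely Ddx43 (ENSRNOG00000050868), Rbmxl2 (ENSRNOG00000021946) and Mael (ENSRNOG00000003790). Dazl, Ddx4, Sycp3, Tdrd1 and Stra8 were not analysed here. The table lists genes by Ensembl identifier, and names came from the readable rows of the study's own list of changed genes, which are all of upregulated genes. All 3 genes were induced by both inhibitors, and none of the 3 stayed silent, where induced means more reads in every treated library than in any control library of its experiment and over 3 reads in at least 1 of them, and silent means at most 3 reads in every library. The list was drawn up with these values in view, so the change of its genes with the drugs is given as a description with no test.

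RNA sequencing of Wistar rat cortical cultures covered 10 libraries in 4 groups. They comprised 3 libraries treated with trichostatin A (TSA, 100 nM, 19 h), 3 of their time-matched controls, 2 treated with sodium butyrate (NaB, 24 h) and 2 of their time-matched controls, numbered 4 and 5. All cultures came from newborn pups and were treated at day 14 in vitro. For NaB the study's methods give 5 mM and the sample labels 5 µM. Drug, duration and experiment changed together between the TSA and NaB groups, so that their effects cannot be told apart. Libraries held 26070908 to 27649249 recovered reads, at which 3 reads correspond to 0.109 to 0.115 CPM (counting error alone). The cultures hold neurons and glia, and in such bulk RNA a few cells with much RNA of a gene and many cells with little cannot be told apart. None of the 16 fixed markers of neurons, astrocytes, oligodendrocytes and microglia could be paired with an identifier, so the labelled cell type was not checked here.

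Germline genes are a textbook case of tissue-restricted expression. In somatic cells many of them are held silent by methylation of CG-rich promoters and by repressor complexes that carry HDACs, among them a Polycomb complex with E2F6 and MGA. In germ cells, their products process germ cell RNA, guard the genome against transposons through small piRNAs, pair and recombine the chromosomes at meiosis, and build the sperm and the egg. The genes are described below in the order of these roles.

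Ddx43 encodes a DEAD-box RNA helicase that is found mainly in testis and in some tumours. It had 1, 0 and 2 reads in the controls for TSA and 197, 122 and 183 reads with TSA. It had 2 reads in each control for NaB and 140 and 116 reads with NaB. The groups did not overlap in either experiment, and even the lowest treated library held 116 reads against at most 2 in any control. The TSA libraries had a normalized count of 158 ± 41.1 (SD, n = 3) and their controls one of 1.06 ± 1.07 (SD, n = 3), at least 50.02-fold higher when the controls are set to 3 reads per library. With NaB it was 122 ± 14.5 (SD, n = 2) and in the controls 2.08 ± 0.0124 (SD, n = 2), at least 39.1-fold higher. On the log2(normalized count + 1) scale the fitted change was 6.38 (standard error 0.41) with TSA and 5.32 (standard error 0.50) with NaB. With so few reads in the controls this value depends on the pseudocount and the model, which moved it from 4.73 to 7.23 with TSA and from 4.16 to 5.88 with NaB. In the RefSeq gene models of a later genome build (GRCr8), Ddx43 overlaps its neighbour Cgas, which encodes a sensor of cytosolic DNA. The use of strand in the counting is not given in the sources used here, and the overlap was not checked in the build of the files. Cgas (ENSRNOG00000046191) had 7 to 16 reads in the controls for TSA and 25 to 39 with TSA. In the NaB experiment the controls had 15 and 19 reads and the treated libraries 12 and 15. Cgas thus rose with TSA (log2 fold change 1.42, adjusted p = 0.00391, limma), and it was at -0.43 on the log2 scale with NaB (adjusted p = 0.403). Its name also came from the study's upregulated genes, so these p-values are no independent evidence. The change with NaB less that with TSA was -1.85 for Cgas (adjusted p = 0.204).

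Rbmxl2 encodes a germ cell RNA-binding protein that acts in splicing at meiosis. The gene is an intronless copy of Rbmx, and reads that it may share with Rbmx make its values uncertain to that extent. None of the 5 control libraries had a read of Rbmxl2. With TSA it had 107, 34 and 76 reads, and with NaB 80 and 109 reads. Every treated library was thus apart from every control, and replicate 2 of TSA was the lowest of the 5. Its normalized count was 68.3 ± 35.1 (SD, n = 3) with TSA, at least 21.7-fold higher than 3 reads per control library, and 90.3 ± 20.8 (SD, n = 2) with NaB, at least 29.0-fold higher. Its fitted log2 change was 5.96 (standard error 0.44) with TSA and 6.49 (standard error 0.53) with NaB. Since all controls are at 0, the pseudocount sets this value, which ran from 3.74 to 9.10 with TSA and from 4.24 to 9.50 with NaB over the pseudocounts and models tried.

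Mael encodes Maelstrom, a protein of the piRNA pathway that protects the germline from transposons. It had 0, 1 and 1 reads in the controls for TSA and 24, 10 and 21 reads with TSA. In the NaB experiment it had 3 and 0 reads in the controls and 40 and 8 reads with NaB. No treated library fell to the level of a control, but the NaB libraries lay far apart, and the lower of them was close to the higher control. The normalized count was 17.3 ± 7.24 (SD, n = 3) with TSA, at least 5.495-fold higher than 3 reads per control library. With NaB it was 22.8 ± 21.3 (SD, n = 2), at least 7.30-fold higher, an SD almost as large as the mean. Its fitted log2 change was 3.41 (standard error 0.71) with TSA and 3.18 (standard error 0.86) with NaB. Over the pseudocounts and models tried it ran from 1.92 to 4.63 with TSA and from 1.87 to 3.87 with NaB. With NaB it was 2.10 without NaB replicate 1, 4.26 without NaB replicate 2, 4.20 without control replicate 4 and 2.16 without control replicate 5.

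**Figure D1:**
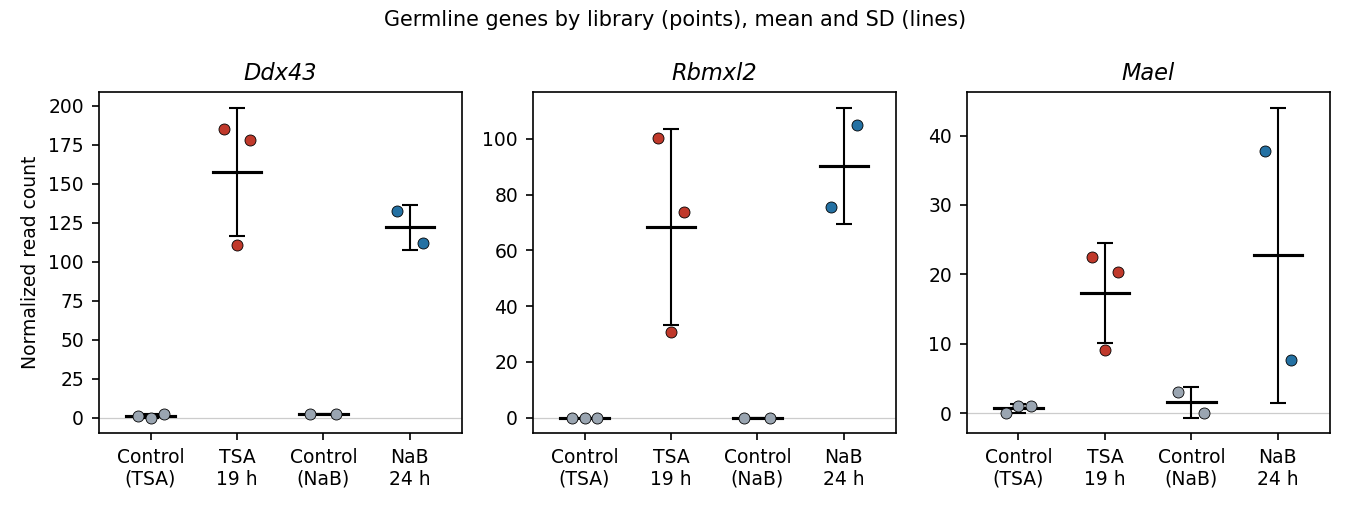
Normalized read counts (y axis, a separate linear scale for each gene) of Ddx43, Rbmxl2 and Mael in the 4 groups (x axis). Each point is a library, horizontal lines are means and bars are SDs. All treated points lie above all control points, which sit at or near 0, and the NaB points of Mael are far apart.

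In all 3 genes, every treated library lay above every control in both experiments. This was so in 33.1% of all tested genes for TSA and in 40.2% for NaB, and since the list was chosen on this pattern the count of 3 has no weight beside these shares. Replicate 2 of TSA was the lowest TSA library for each of the 3 genes. The same library was lowest in 18 of the 24 germline genes described here and in 50.3% of the 3540 genes that were called higher with TSA. The difference between the drugs, a contrast on which the list was not chosen, was tested as the NaB effect less the TSA effect. It was -1.06 on the log2 scale for Ddx43 (95% interval -2.49 to 0.36, adjusted p = 0.531), 0.53 for Rbmxl2 (95% interval -0.99 to 2.06, adjusted p = 0.8001) and -0.23 for Mael (95% interval -2.70 to 2.24, adjusted p = 0.957) (limma, Benjamini-Hochberg adjusted over all tested genes). The sign for Mael turned without single libraries, to 0.12 without replicate 1 of the controls for TSA, 0.79 without control replicate 4 and 0.85 without NaB replicate 2. None of the 3 passed, and none had an unadjusted p below 0.05. None passed with edgeR either, and with DESeq2 neither Ddx43 nor Rbmxl2 passed, while Mael was given no adjusted p. In the background, 0.299% of the tested genes passed. The intervals were wide, and these p-values do not show that the drugs acted alike.

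The 250 bases before the gene start are shown for the 3 genes as a description. CG dinucleotides are the sites of promoter methylation, which was not measured here. The sequences are those of RefSeq (GRCr8), matched by gene symbol and written 5′ to 3′, with CG dinucleotides in capitals.
Ddx43, chr8:88135623-88135872, plus strand: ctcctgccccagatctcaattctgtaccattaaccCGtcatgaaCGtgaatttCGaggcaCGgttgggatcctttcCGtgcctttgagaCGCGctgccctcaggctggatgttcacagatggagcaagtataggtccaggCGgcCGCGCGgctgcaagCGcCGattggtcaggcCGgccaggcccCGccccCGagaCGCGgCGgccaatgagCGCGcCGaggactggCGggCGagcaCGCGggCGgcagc
Rbmxl2, chr1:170528320-170528569, plus strand: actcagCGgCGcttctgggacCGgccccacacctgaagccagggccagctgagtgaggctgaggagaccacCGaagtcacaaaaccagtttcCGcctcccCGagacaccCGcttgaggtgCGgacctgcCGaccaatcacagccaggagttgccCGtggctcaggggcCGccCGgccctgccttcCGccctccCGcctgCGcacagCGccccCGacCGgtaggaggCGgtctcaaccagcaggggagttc
Mael, chr13:81029624-81029873, minus strand: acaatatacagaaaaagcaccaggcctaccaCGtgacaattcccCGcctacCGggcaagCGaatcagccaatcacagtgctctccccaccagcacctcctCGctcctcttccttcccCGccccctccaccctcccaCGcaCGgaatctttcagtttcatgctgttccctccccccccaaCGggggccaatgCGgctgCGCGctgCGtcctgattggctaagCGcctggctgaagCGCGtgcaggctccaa

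Ddx43 had 27 CG dinucleotides in this window, Rbmxl2 had 19 and Mael had 16, where the median over 19005 protein-coding genes was 9. Of all these windows, 89.9% held fewer than Ddx43, 74.5% fewer than Rbmxl2 and 66.8% fewer than Mael. The ratio of observed to expected CG was 1.00 for Ddx43, 0.651 for Rbmxl2 and 0.761 for Mael, with a median of 0.523 over all windows. All 3 windows thus held more CG dinucleotides than the median window. The 14 other germline genes with such a window had a median of 13, from 3 to 30. Among them, Spata22 (3), Lhx8 (5), H1f6 (7), Hormad2 (9) and Hspa1l (9) did not exceed the median of all windows, while the rest did. Both strands were searched for 4 short motifs. The letters CCAAT were present in Ddx43 (2 matches), Rbmxl2 (1) and Mael (3), as in 35.5% of all windows. The letters CACGTG, the core of the E-box that MAX and its partners bind, were present once in Mael, as in 6.38% of all windows. Neither TTCCCGC, a form of the E2F motif, nor TATAAA was found in any of the 3, against 4.46% and 12.3% of all windows. Such matches describe the letters alone, and binding or methylation was not measured.

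**Figure D2:**
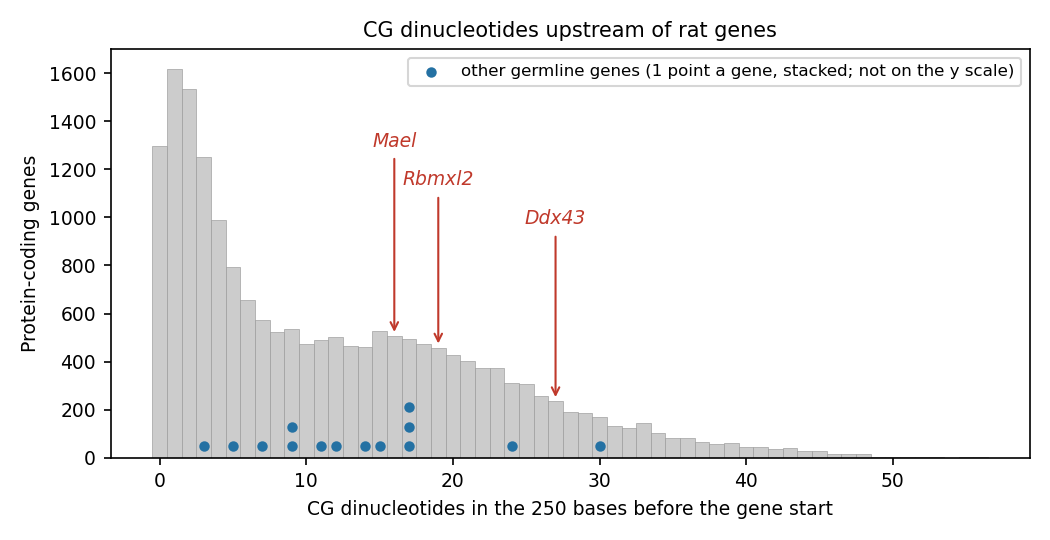
Number of protein-coding rat genes (y axis, grey bars) by the number of CG dinucleotides in the 250 bases before the gene start (x axis, RefSeq GRCr8). Arrows mark Mael (16), Rbmxl2 (19) and Ddx43 (27), and each blue point is 1 of 14 other germline genes, stacked without regard to the y scale, between 3 and 30.

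Beyond the 8 genes, 6 lists of germline genes by role held 114 other genes, of which 21 could be paired with an identifier. Of these 21, 19 were called higher with TSA and 16 with NaB, and 14 with both (limma, adjusted p below 0.05 and a log2 fold change of at least 0.5). Over all tested genes, 22.5% were called higher with TSA and 21.2% with NaB. The 21 names come from a list that the study chose as upregulated in these same libraries, so their number and direction are no independent evidence, and germline genes that did not change could not appear among them. The same limit holds for the p-values given below for the change of single genes with each drug. They set a change against the spread between libraries and are no independent evidence of a rise. Moreover, 10 of the 21 (Tdrd6, Hormad2, Rad21l1, Spata22, Lhx8, Dmrt1, Rhox5, Prm2, Adam2 and Zar1) had under 10 reads in every control. They passed the filter on low counts only through treated libraries, so the filter itself favoured a rise with TSA or NaB. Their change with each drug is given below as values with no p. A change with both drugs was not forced, and the TSA libraries of Hormad2 and Rhox5 overlapped their controls. Of the other 11, 11 were called higher with TSA and 8 with NaB. Sall4 and Izumo1 are counted here, but each had 10 reads or more in 1 control library only, too few to pass the filter. They too passed only with treated libraries, so no p is given for their change with each drug. None of the 21 was called lower, where 19.7% of all tested genes were with TSA and 20.3% with NaB. None was lower with edgeR or DESeq2 either, and none was lower at an unadjusted p below 0.05. Over all 21, those that passed only with treated libraries included, the median log2 fold change was 2.02 with TSA (range 0.88 to 4.16). With NaB it was 2.10 (range 0.10 to 4.64). The medians over all tested genes were 0.022 and 0.020, a comparison with no weight given how the 21 were found. Without single libraries, 18 to 20 were called higher with TSA and 12 to 18 with NaB. Values of all 24 germline genes are shown by library in the heatmap.

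**Figure D3:**
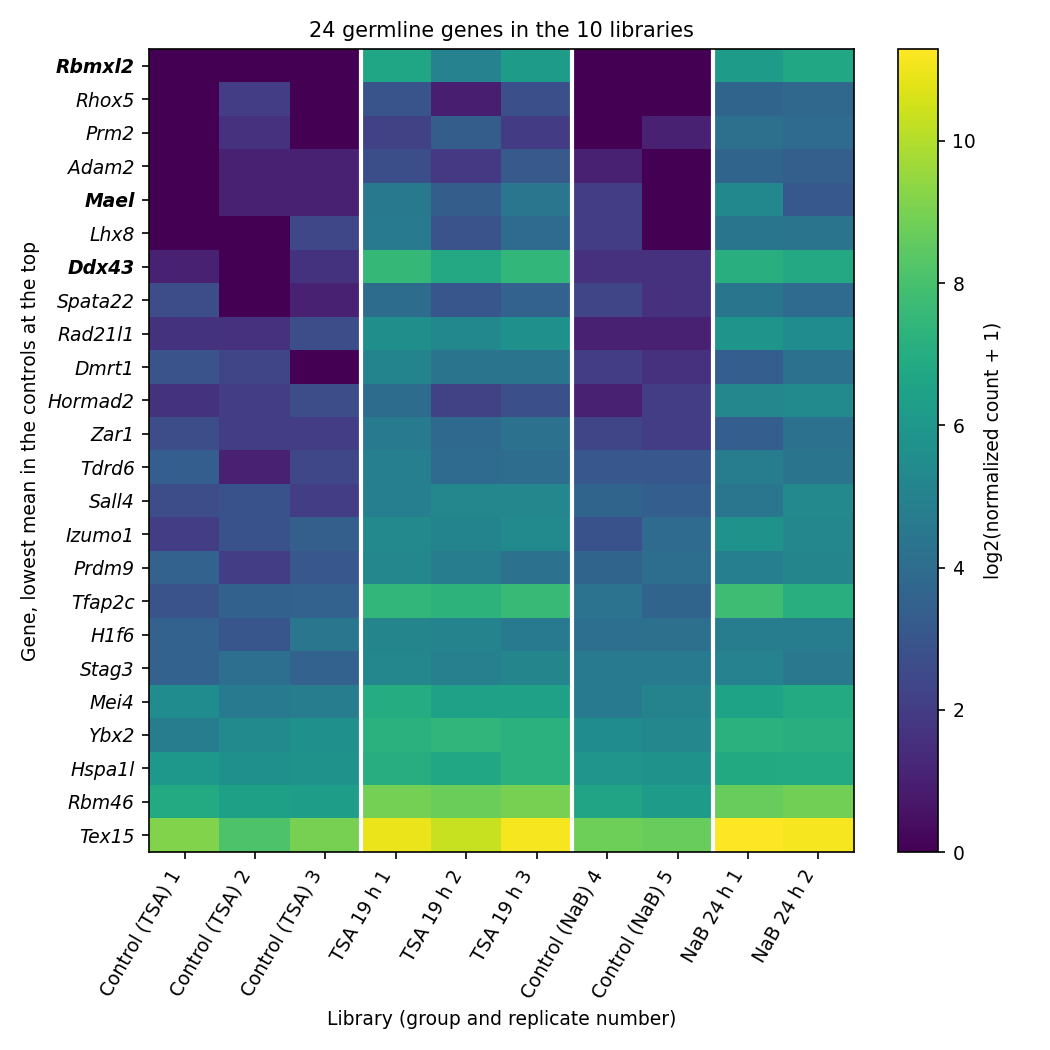
Level of 24 germline genes (rows, names of Ddx43, Rbmxl2 and Mael in bold) in the 10 libraries (columns, parted by group), as log2(normalized count + 1). Rows are ordered by their mean in the controls, and Rbmxl2 at the top has no read in a control, while Tex15 at the bottom has 274 to 529 reads in the controls and 1443 to 2643 with the drugs.

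Among the other RNA-binding genes, 2 of 12 could be paired, and both rose with both drugs. Rbm46, which is needed for germ cells to enter meiosis, was already read in the controls (112, 82 and 72 reads for TSA, 91 and 71 for NaB) and had 482 to 520 reads with TSA and 433 and 488 with NaB. Its log2 fold change was 2.36 with TSA (standard error 0.17, adjusted p = 2.71e-06) and 2.38 with NaB (standard error 0.21, adjusted p = 1.61e-05). Ybx2, a Y-box protein that stores messenger RNA in germ cells, rose by 2.02 on the log2 scale with TSA (adjusted p = 4.29e-05) and by 1.79 with NaB (adjusted p = 4.85e-04). Both genes differ from Ddx43 and Rbmxl2 in that all their control libraries had over 20 reads.

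Of 17 other genes of the piRNA pathway, 2 could be paired. Tex15, which directs piRNA-guided silencing of transposons and acts in meiosis, had 529, 274 and 470 reads in the controls for TSA and 2102, 1443 and 2283 with TSA. In the NaB experiment it had 429 and 382 reads in the controls and 2643 and 2337 with NaB. It rose with both drugs, by 2.06 on the log2 scale with TSA (adjusted p = 5.34e-05) and by 2.49 with NaB (adjusted p = 8.60e-05). Tdrd6, a Tudor protein of the chromatoid body of spermatids, had 9, 1 and 4 reads in the controls for TSA and 30, 16 and 16 with TSA, a log2 fold change of 2.02, or 1.39 without control replicate 2. It had 7 reads in each control for NaB and 27 and 20 with NaB, a log2 fold change of 1.49. The groups did not overlap in either experiment.

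Of 31 other meiosis genes, 6 could be paired. Of these, Rad21l1, Spata22 and Hormad2 passed the filter only with treated libraries, as said above, so their calls are not counted here. Rad21l1, the kleisin subunit of a cohesin that acts in meiosis, had 1 to 5 reads in any control, 52, 42 and 52 with TSA and 59 and 46 with NaB. Its log2 change was 3.57 with TSA (standard error 0.35), and the NaB libraries were at least 16.05-fold above their controls. Mei4, which is needed for the DNA breaks that start recombination, had 24 to 42 reads in the controls, 89 to 136 with TSA and 98 and 122 with NaB. It rose by 1.65 with TSA (adjusted p = 3.78e-04) and by 1.84 with NaB (adjusted p = 8.91e-04). Spata22, a recombination protein, had 5, 0 and 1 reads in the controls for TSA and 16, 8 and 11 with TSA. Its log2 change with TSA was 2.30, or 3.01 without control replicate 1 and 1.68 without control replicate 2. With NaB it was 2.17, from 4 and 2 reads in the controls to 21 and 15.

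Of the other 3 meiosis genes, Prdm9 and Stag3 were called with TSA alone, and Hormad2 is given as values. Prdm9, the histone methyltransferase that places recombination sites, rose with TSA (log2 fold change 1.85, adjusted p = 0.00293) and was at 1.15 with NaB (adjusted p = 0.0789). For NaB it passed once pairs were a block (adjusted p = 0.0395), with the experiment fitted alone (0.0330), with a pseudocount of 5 (0.0450) and without replicate 2 of the controls for TSA (adjusted p = 0.0344). Stag3, another subunit of meiotic cohesin, had 10, 16 and 10 reads in the controls for TSA and 39, 32 and 35 with TSA, a rise of 1.35 (adjusted p = 0.00132). In the NaB experiment its controls were already at 23 and 24 reads, and the treated libraries were at 33 and 23 reads (log2 fold change 0.10, adjusted p = 0.808, and -0.13 without NaB replicate 1). Hormad2, a protein of the chromosome axis, had 1 to 5 reads in all controls, 16, 4 and 6 reads with TSA and 38 and 42 with NaB. Its TSA libraries overlapped their controls (log2 fold change 0.88), whereas the NaB libraries were at least 12.2-fold above theirs. The NaB effect less the TSA effect was 2.87 on the log2 scale for Hormad2. It is given with no p, since the gene passed the filter only with the NaB libraries. For Prdm9 the difference was -0.70 (95% interval -2.16 to 0.75, adjusted p = 0.708). It was -1.25 for Stag3 (95% interval -2.19 to -0.32, unadjusted p = 0.0134, adjusted p = 0.278). Neither Prdm9 nor Stag3 passed over all tested genes (limma), so a difference between the drugs is not shown for these genes. For Hormad2 the difference is a value alone, from which nothing is concluded.

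Of 16 regulators of transcription in germ cells and pluripotent cells, 5 could be paired. Of these, Lhx8, Sall4, Dmrt1 and Rhox5 passed the filter only with treated libraries, as said above. Tfap2c, which acts in primordial germ cells and also in other embryonic tissues, had 6, 10 and 10 reads in the controls for TSA and 189, 171 and 204 with TSA. In the NaB experiment it had 18 and 11 reads in the controls and 231 and 144 with NaB. It rose by 4.16 on the log2 scale with TSA (standard error 0.28, adjusted p = 1.61e-06) and by 3.48 with NaB (standard error 0.34, adjusted p = 2.54e-05), the largest TSA change of the 21 genes. Lhx8, a homeobox gene of oocytes and also of basal forebrain neurons, had 0, 0 and 4 reads in the controls for TSA and 25, 7 and 15 with TSA. Its log2 change with TSA was 3.02, or 3.82 without control replicate 3. With NaB it had 21 and 20 reads against 3 and 0, at least 6.27-fold more. That log2 change was 3.34, and it was 4.36 without control replicate 4 and 2.32 without control replicate 5. Sall4, a zinc finger gene of spermatogonia and stem cells, had 3 to 6 reads in the controls for TSA and 30 to 40 with TSA. In the NaB experiment the controls had 11 and 9 reads and the treated libraries 22 and 40. Its log2 change was 2.59 with TSA and 1.37 with NaB, the latter 0.94 to 1.80 without single libraries. The difference between its changes was -1.22 (unadjusted p = 0.0424, adjusted p = 0.378).

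Dmrt1, a DM-domain gene of the testis, had 6, 4 and 0 reads in the controls for TSA and 35, 21 and 20 with TSA. Its log2 change was 2.84 with TSA, or 1.97 without control replicate 3, and 2.00 with NaB, from 3 and 2 reads in the controls to 10 and 19. The groups did not overlap in either experiment. Rhox5, an X-linked homeobox gene of the reproductive organs that is best known from the supporting cells, had no read in the controls for NaB and 12 and 13 reads with NaB, at least 3.83-fold higher. With TSA it had 7, 1 and 6 reads against 0, 3 and 0 in the controls, and these groups overlapped. Its log2 change with TSA was 1.53, or 2.21 without control replicate 2 and 2.17 without TSA replicate 2.

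Of 27 spermatid and sperm genes, 5 could be paired. Of these, Izumo1, Prm2 and Adam2 passed the filter only with treated libraries, as said above. Izumo1, the sperm protein that binds the egg, had 3, 6 and 9 reads in the controls for TSA and 41, 37 and 43 with TSA. Its log2 change was 2.51 with TSA and 2.10 with NaB. Prm2, a protamine that packs sperm DNA, had at most 2 reads in any control, 4, 10 and 3 with TSA and 18 and 15 with NaB. Its NaB libraries were at least 5.05-fold above the controls and its TSA libraries at least 1.66-fold. Its log2 change with TSA was 1.98, and it was 0.82 with a pseudocount of 5 and 2.92 with DESeq2. Adam2, a subunit of the sperm surface protein fertilin, had at most 1 read in any control, 3 to 8 with TSA and 12 and 10 with NaB. No treated library of Prm2 or Adam2 fell to the level of a control. Hspa1l, a testis-enriched heat shock gene, rose by 1.16 with TSA (adjusted p = 2.97e-04) and by 1.07 with NaB (adjusted p = 0.00234), with values made uncertain by its near-identical relatives. H1f6, the linker histone of spermatocytes, rose by 1.30 with TSA (adjusted p = 0.00763) and was at 0.63 with NaB (adjusted p = 0.234).

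Of 11 oocyte genes, Zar1 alone could be paired, a gene that regulates maternal messenger RNA. It had 3 to 5 reads in all controls, 25, 15 and 18 with TSA and 10 and 18 with NaB. Its log2 change was 1.98 with TSA and 1.59 with NaB, and the groups did not overlap in either experiment.

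**Figure D4:**
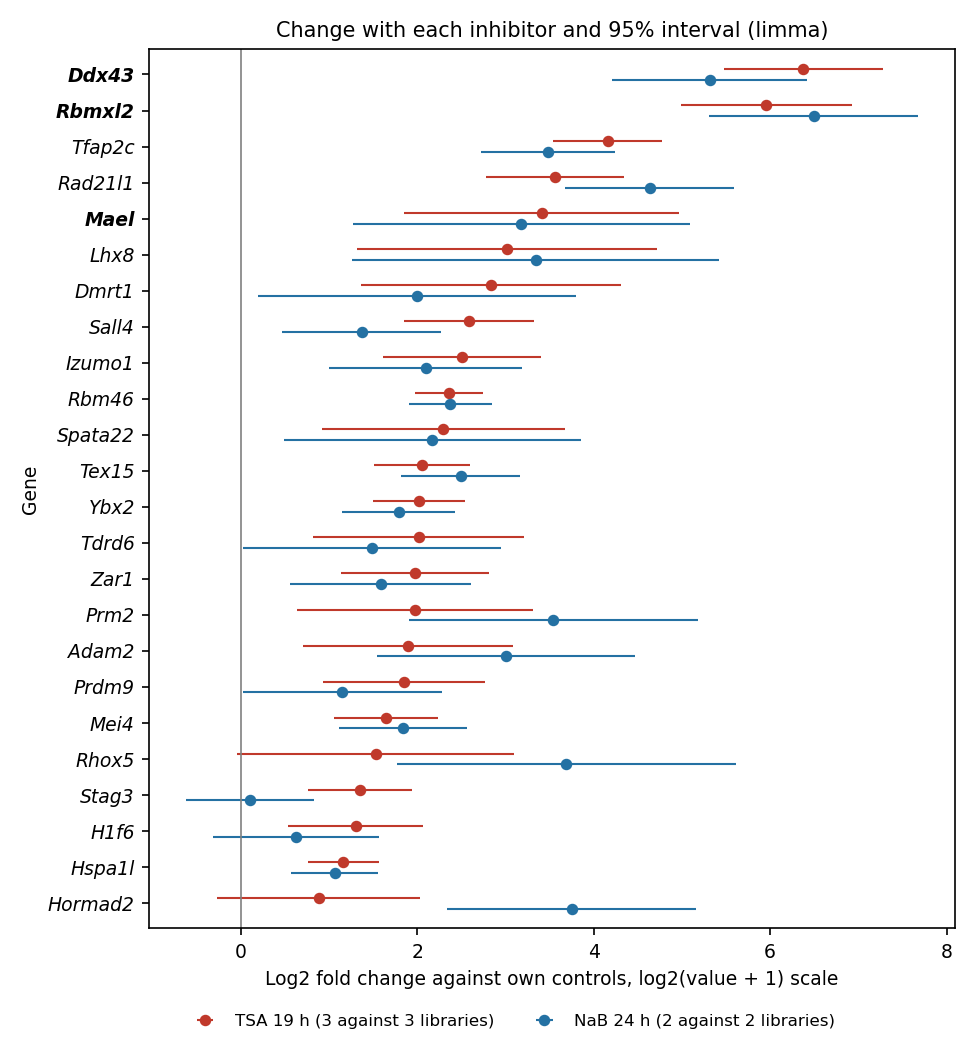
Log2 fold change (x axis, log2(normalized count + 1) scale) of 24 germline genes (y axis, ordered by the change with TSA) against their own controls with TSA (red) and NaB (blue). Points are estimates and lines 95% intervals from limma. Ddx43 and Rbmxl2 have the largest changes at a pseudocount of 1, between 5.32 and 6.49. For Ddx43, Rbmxl2, Mael and the genes that passed the filter only with treated libraries, the lines describe spread and are no test against 0. The names of the other genes also came from upregulated genes, so their intervals are no independent evidence. Among the other genes, the intervals of Stag3 and H1f6 with NaB include 0.

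The starting level set the 24 genes apart from each other. Of them, 6 had at most 3 reads in each of the 5 control libraries, namely Ddx43, Rbmxl2, Mael, Rhox5, Prm2 and Adam2. In 3 of the 6, all 5 treated libraries had over 3 reads, and these were the 3 genes of the list. In the whole table, 15729 genes had at most 3 reads in each control library, and 257 of them (1.63%) had over 3 reads in every treated library. Of the 15729, 14361 (91.3%) had at most 3 reads in all 10 libraries and thus stayed silent by the same limit. These include 8590 genes with no read in any library, and over the 7139 with at least 1 read the 257 came to 3.6%. Ddx43, Rbmxl2 and Mael belonged to the 257, and that membership follows from how they were chosen.

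Among markers of the somatic cells of testis and ovary, 1 of 5 could be paired. Foxl2, a transcription factor of ovarian granulosa cells, had no read in any control, 14, 7 and 13 reads with TSA and 7 and 10 with NaB, at least 3.39-fold and 2.61-fold higher. It too passed the filter on low counts only through treated libraries, so no p is given. Its part in the results was not tested. Of 21 genes of the complexes that repress germline genes, Atf7ip alone, a partner of the histone methyltransferase SETDB1, could be paired. Controls for TSA had 3394 ± 177 (SD, n = 3) normalized counts of Atf7ip and TSA libraries had 8075 ± 331 (SD, n = 3). It rose by 1.25 on the log2 scale with TSA (adjusted p = 6.27e-07) and by 1.16 with NaB (adjusted p = 5.19e-06). It too was on the study's list of upregulated genes, so its p-values are no independent evidence.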

How the data were processed

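Total RNA was sequenced after poly(A) selection (paired-end, DNBseq-G400). Per the labels and methods, the authors mapped reads to Rnor_6.0 with STAR 2.7.9a, counted them per gene with featureCounts 2.0.1, and scaled the counts with the size factors of DESeq2 1.29 (median of ratios). The deposited signal thus holds scaled reads. The step of 1 read was found for each library from its lowest value over 0, and by it 100% of such values came out whole (tolerance 0.01).

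The test was limma 3.58.1 (R 4.3.3) with a trend, fitted to log2(normalized count + 1) in all 10 libraries (4 groups), for the 15717 of 24293 genes with at least 1 read that filterByExpr (minimum count 10) kept, with Benjamini-Hochberg adjustment. Genes were called at an adjusted p under 0.05 if they moved by 0.5 or more on the log2 scale. On the recovered reads, edgeR 4.0.16 and DESeq2 1.42.0 were alternatives. The fitting code was tested on simulated data. All tests were two-sided, and intervals are for 95% confidence. P-values measure the spread between the libraries, which the methods describe as different biological replicates.

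The methods state that each control and treated pair shared a plate. Pairs were taken from the replicate numbers for TSA and, for NaB, from consecutive library names. After group means were removed, paired libraries correlated with r = 0.284, 0.392 and 0.314 across genes for TSA, and 0.342 for NaB, where the 2 pairs share 1 value.

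The members and lists were chosen with earlier results of these data known. Symbols came from the study's list of changed genes, whose readable rows pair 1911 identifiers with a symbol. Its fold changes and p-values were not used. Named were the listed genes, of each germline list up to 4 others that rose most and up to 3 that fell most among called genes, the repressors and cell type markers, neighbouring genes, and the 3 genes most like each member, of which 1 is not reported here. Stag3, Hormad2, Rhox5 and Hspa1l fall outside this rule and were named after their values were seen. The motifs and counts of CG were added after the expression values were known.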

Additional observations from a re-analysis of the deposited data

How the results depend on the processing

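The fold changes of genes with almost no reads in the controls depended on the pseudocount and on the model. With DESeq2, the log2 fold changes with TSA were 7.23 for Ddx43, 8.46 for Rbmxl2 and 4.63 for Mael, and with NaB 5.88, 8.88 and 3.87. With edgeR and TMM they were 7.06, 9.10 and 4.39 with TSA, and 5.78, 9.50 and 3.75 with NaB. A pseudocount of 5 gave 4.73, 3.74 and 1.92 with TSA, and 4.16, 4.24 and 1.87 with NaB. A pseudocount of 0.5 gave 6.95 for Rbmxl2 with TSA, and 5.57 for Ddx43 and 7.49 for Rbmxl2 with NaB. All kept their direction. Without single libraries, the log2 fold change with TSA was 5.93 to 6.75 for Ddx43, 5.61 to 6.44 for Rbmxl2 and 3.07 to 3.80 for Mael. With NaB it was 5.20 to 5.44, 6.26 to 6.73 and 2.10 to 4.26. The difference between the drugs for Mael changed sign without single libraries (-1.31 to 0.85, adjusted p of 0.736 to 1.00). For it DESeq2 gave no adjusted p. When genes under a mean of 50 counts were left out, 6 of the 21 other germline genes were called higher with TSA and 6 with NaB, since fewer genes were tested, and Rbmxl2 and Mael had no value. Stag3 with NaB was at -0.13 to 0.34 without single libraries. The replicate block changed the calls of Prdm9, which is given above, and of Tdrd6 and Dmrt1 with NaB (19 other germline genes called higher with NaB, against 16), and no other call among the other germline genes named. Over all tested genes it moved the number called from 6644 to 6958 with TSA and from 6521 to 6950 with NaB. All 3 members were induced with limits of 1 and 10 reads and without each library in turn. Differences below about 3 reads per gene could not be seen in a library.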

Other observations

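Genes whose profile was most like that of a member were ranked by Pearson's r of log2(normalized count + 1) over the 10 libraries, a description that mostly follows the split into 5 treated and 5 control libraries. For Ddx43 these were Ift27 (r = 0.997), a gene of transport in cilia, Nkx6-1 (r = 0.997), a homeobox gene of ventral neural progenitors, and Flt1 (r = 0.996), a receptor of vascular growth factors. For Rbmxl2 they included Sox14 (r = 0.999), a transcription factor of interneurons, and Hoxd10 (r = 0.998), a gene of limb and spinal cord patterning. The 3 profiles most like that of Mael belong to genes without a symbol in the sources used here. Between the members themselves, r was 0.981 for Ddx43 and Rbmxl2, 0.908 for Ddx43 and Mael and 0.907 for Rbmxl2 and Mael. Among all tested genes, Rbmxl2 ranked 131 and Mael 1952 by likeness to Ddx43. By likeness to Rbmxl2, Ddx43 ranked 241 and Mael 2181, so such values are not particular to the members.

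In the RefSeq order of genes, Ddx43 and Rbmxl2 each lie beside a gene of the oocyte list, Ooep for Ddx43 and Nlrp14 for Rbmxl2, neither of which was analysed here. Mael lies between Gpa33 and Ildr2, which are on none of the germline lists. How often any gene lies beside a listed gene was not worked out, so nothing is concluded from these neighbours.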
